A study of Mus musculus with 4 samples.

Results

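The genes described here are the switches of the Ras pathway and the proteins that turn them off, measured in mouse muscle in which the gene of the Ras brake neurofibromin was targeted. They are 9 genes of 32868 gene names in the deposited files, chosen by name. Of these, 4 encode Ras GTPase-activating proteins (Ras-GAPs: Nf1, Rasa1, Rasa2 and Rasa3) and 5 encode GTPases of the Ras family (Hras, Nras, Rras, Rras2 and Mras). C57BL/6 mice gave RNA of the tibialis anterior, a shin muscle of mostly fast fibres, at postnatal day 21. The Nf1-KO libraries (2) carried the genotype Nf1flox/flox/Myf5+ and the Het libraries (2) the genotype Nf1flox/+/Myf5+. Both groups thus share the Myf5+ allele and at least a single floxed Nf1 allele, and neither group is wild type. In crosses of this kind Myf5+ usually stands for a Cre recombinase under the promoter of Myf5, a factor of muscle precursors, but the labels do not spell this out. Cells outside that lineage would keep intact Nf1 and contribute to the same RNA. The labels do not say whether the 2 libraries of a group came from separate animals, so p-values measure only the spread between these libraries, which may be technical.

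Ras proteins are small GTPases that sit on the inner face of the cell membrane and signal while bound to GTP. Exchange factors such as Sos1 load them with GTP, and Ras-GAPs speed up the hydrolysis of that GTP and so end the signal. Active Ras binds Raf kinases, which start the MEK-ERK cascade, and phosphoinositide 3-kinases. In muscle this pathway carries signals of growth factor receptors. Hras and Nras encode classical Ras proteins, while Rras, Rras2 (TC21) and Mras encode related GTPases with partly different regulators and effectors. In the mouse annotation (GENCODE M21) Hras, Rras and Rras2 lie on chromosome 7, Mras and Rasa2 on chromosome 9, Nras on chromosome 3, Rasa3 on chromosome 8, Nf1 on chromosome 11 and Rasa1 on chromosome 13.

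Because family members resemble each other, the coding sequences were compared first, to show how much sequence could be shared by their reads. Hras and Nras, the closest pair, were 76.1% identical over 566 aligned coding bases (GENCODE M21), and Rras and Rras2 were 68.6% identical over 605. The longest stretch without a mismatch was 23 bases in each of these pairs and 11 to 17 bases in the other 8 pairs of the 5 GTPases. The stretch of Rras and Rras2 is printed because these 2 genes moved in opposite directions. It is the longest exact match between their longest coding sequences. Untranslated parts, other transcripts and matches with mismatches were not compared. The read length and the treatment of reads that fit more than one gene are not given in the sources used here.
Rras and Rras2: accatccagttcatccagtccta

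Levels were compared in RPKM (reads divided by transcript length and by library size), a unit that corrects for gene length, so genes can be ranked within a library. In Het muscle Hras was the most abundant of the 9, followed by Rras, Nras, Rasa1, Rras2, Rasa3, Mras, Nf1 and Rasa2. Mean RPKM ran along that order from 20.4 to 0.425. In Nf1-KO muscle the order was the same except that Rras2 and Rasa1 traded places. Both libraries of a gene lay above both libraries of the next gene at every step but that between Rras2 and Rasa1 in Nf1-KO, where they overlapped. The mean read count per gene in the authors' deposited table, divided by the authors' size factors, ran from 120 for Rasa2 and 274 for Mras to 1991 for Hras. Rasa2 is therefore the member measured with the fewest reads, while Nf1, long and lowly expressed, still had a mean of 698.

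**Figure D1:**
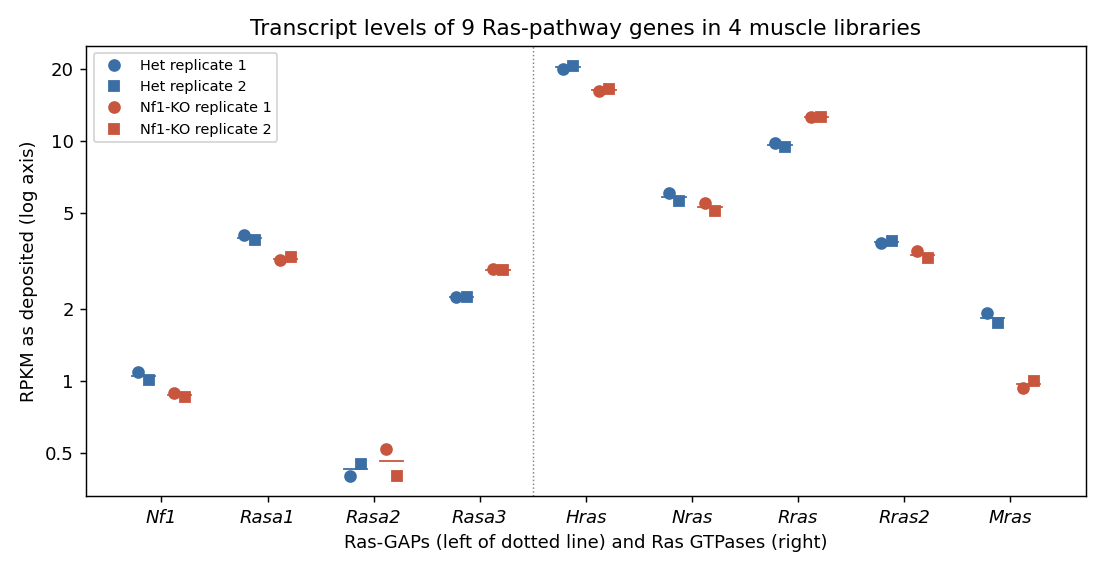
RPKM as deposited (log axis) of the 4 Ras-GAPs and 5 Ras GTPases in each of the 4 libraries; circles and squares are replicates 1 and 2, and lines are group means. Hras lies highest at 16.3 to 20.6 RPKM and Rasa2 lowest at 0.4 to 0.52 RPKM, and for every gene but Rasa2 the Het and Nf1-KO libraries do not overlap.

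The comparison of Nf1-KO with Het asks how the transcripts of the Ras switch and its brakes stand once the Nf1 gene is targeted. Differences were tested with limma on log2(RPKM + 1) after scaling between libraries, over the 10690 genes that reached 0.5 RPKM in 2 or more libraries. A two-sided p adjusted by Benjamini-Hochberg under 0.05 was called. Fold changes on this scale understate the change of low genes. Of the 9 genes, 8 entered the test; each of these 8 had at least 0.85 RPKM in every library, so none entered through 1 group alone. All 8 were called, 6 lower (Nf1, Rasa1, Hras, Nras, Rras2 and Mras) and 2 higher (Rasa3 and Rras) in Nf1-KO. The background is high: 50.3% of all tested genes were called, 25.4% lower and 24.9% higher. Likewise the 2 groups did not overlap for any of the 8, against 76.3% of tested genes (38.1% lower in Nf1-KO). The median log2 fold change was -0.20 over the 8 genes and 0.00051 over all tested genes. With values as deposited and unscaled, the same 2 genes were called higher but only 3 lower (Rasa1, Hras and Mras), against 35.2% and 17.6% of all genes (52.8% in either direction). The share of higher genes among those called thereby moved from 25.0% to 40.0% for the 8 genes and from 49.5% to 66.6% for all genes. Leaving out any library ended 1 of the 2 higher calls, and without Nf1-KO replicate 2 the lower calls numbered 3.

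**Figure D2:**
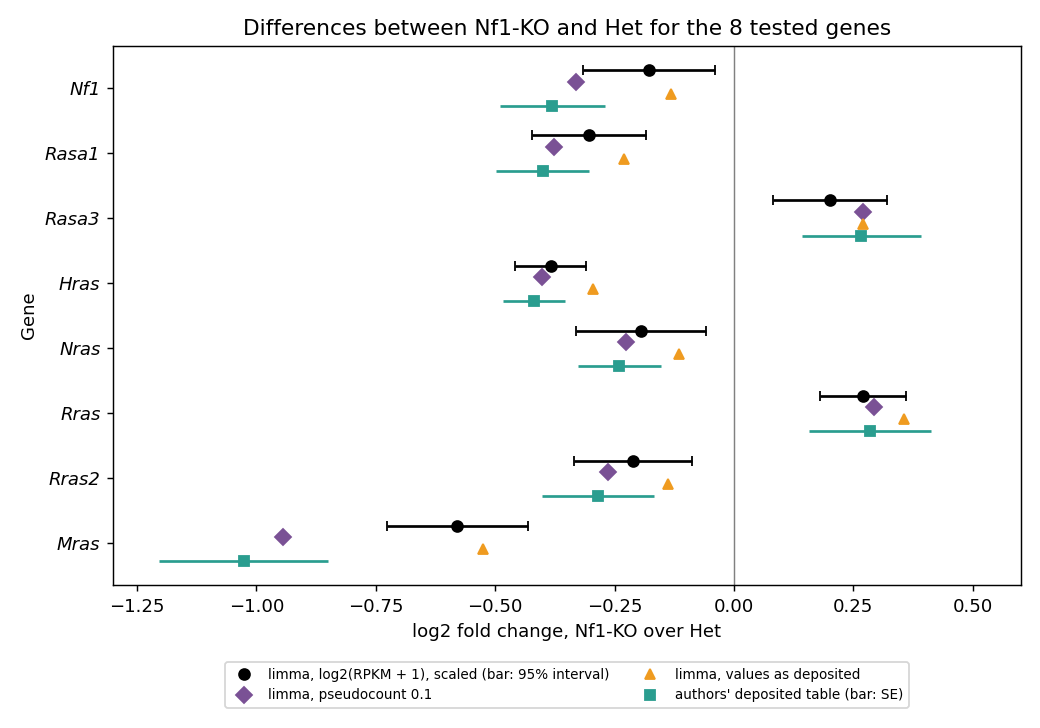
Log2 fold change of Nf1-KO over Het for the 8 tested genes, by limma with a pseudocount of 1 and scaling (black, with 95% intervals), with a pseudocount of 0.1, with values as deposited, and in the authors' deposited table (with standard errors). All 4 estimates lie on the same side of 0 for each gene, and the estimates for Mras spread from -0.53 to -1.03.

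Nf1 encodes neurofibromin and is the targeted gene. It held 1.09 and 1.01 RPKM in Het and 0.89 and 0.85 RPKM in Nf1-KO. The latter were lower without overlap, but transcript remained in both. The log2 fold change was -0.18 (standard error 0.057, limma adjusted p 0.041). Among tested genes, 2360 had a more negative fold change than Nf1. The call was lost whichever library was left out (limma adjusted p 0.0566 to 0.179), without a filter on low values (0.0739) and with unscaled values (0.0944), and a pseudocount of 0.1 gave -0.33. The gene-level value sums all exons and all cells of the muscle, and the floxed exons are not given in the sources used here, so it does not measure the loss of the floxed part.

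Rasa1 encodes p120 RasGAP, which docks on activated receptors through its SH2 domains. It held 4.05 and 3.87 RPKM in Het against 3.18 and 3.28 RPKM in Nf1-KO. Both Nf1-KO libraries were lower, with a log2 fold change of -0.30 (standard error 0.049, limma adjusted p 0.0030). Rasa1 thus fell with Nf1: the ratio of Nf1 to Rasa1 RPKM within a library was 0.269 and 0.261 in Het and 0.280 and 0.259 in Nf1-KO, and these ranges overlap. Only 12 bases of Rasa1 exon overlap another gene, Ccnh on the opposite strand, and no exon of the other 8 genes overlaps another gene in GENCODE M21.

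Rasa3 encodes a GAP that binds membrane lipids and acts on Ras and on the related Rap proteins. It moved the other way, from 2.24 RPKM in each Het library to 2.92 and 2.89 RPKM in Nf1-KO. The groups lay apart, with a log2 fold change of 0.20 (standard error 0.049, limma adjusted p 0.016). Leaving out any single library kept the fold change between 0.20 and 0.21 but ended the call (limma adjusted p 0.0522 to 0.0665). Rasa2, a close relative of Rasa3, held 0.4 and 0.45 RPKM in Het and 0.52 and 0.4 RPKM in Nf1-KO. Its groups overlapped and it was under the filter; with no filter its log2 fold change was 0.0010 (limma adjusted p 0.99).

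Hras, the most abundant of the GTPases, held 20.15 and 20.58 RPKM in Het and 16.26 and 16.58 RPKM in Nf1-KO. The groups lay well apart, and the log2 fold change was -0.38 (standard error 0.031, limma adjusted p 1.6e-04). Nras held 6.07 and 5.63 RPKM in Het and 5.54 and 5.11 RPKM in Nf1-KO. Here the lower Het library and the higher Nf1-KO library were close to each other. The log2 fold change was -0.20 (standard error 0.056, limma adjusted p 0.028), and the call was lost without Het replicate 1 (adjusted p 0.125), without Nf1-KO replicate 2 (0.138), with no filter (0.0852) and with unscaled values (-0.12, 0.133).

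The related GTPases did not move together. Rras, whose product acts on integrin adhesion and is known from vessel walls, held 9.86 and 9.43 RPKM in Het and 12.66 and 12.60 RPKM in Nf1-KO. Both Nf1-KO libraries were higher, with a log2 fold change of 0.27 (standard error 0.037, limma adjusted p 0.0015). Rras2 held 3.75 and 3.85 RPKM in Het and 3.47 and 3.26 RPKM in Nf1-KO, a log2 fold change of -0.21 (standard error 0.051, limma adjusted p 0.015). The call for Rras2 was lost without Het replicate 2 (limma adjusted p 0.0587), without Nf1-KO replicate 2 (0.0908) and with unscaled values (-0.14, 0.0609).

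Mras showed the largest fall of the 9 genes. Its product forms a complex with Shoc2 and a protein phosphatase that removes an inhibitory phosphate from Raf. It held 1.92 and 1.74 RPKM in Het against 0.93 and 1.00 RPKM in Nf1-KO, so the mean in Nf1-KO was 0.527 of that in Het. The log2 fold change was -0.58 (standard error 0.061, limma adjusted p 4.7e-04), and 3.41% of tested genes had a more negative value. At this low level the pseudocount matters: with 0.1 in place of 1 the log2 fold change was -0.94 (limma adjusted p 5.3e-04). The calls for Mras, Hras, Rasa1 and Rras held in every alternative that tested them.

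In the authors' deposited table, which comes from DESeq2 on read counts, 6 of the 9 genes had an adjusted p under 0.05, against 31.6% of its 13985 rows (15.0% higher and 16.6% lower). These were the 6 lower genes named above, with log2 fold changes in the authors' deposited table of -1.03 for Mras, -0.42 for Hras, -0.40 for Rasa1, -0.38 for Nf1, -0.28 for Rras2 and -0.24 for Nras. The authors' deposited table gave Rras 0.28 (adjusted p 0.075) and Rasa3 0.27 (adjusted p 0.089), both higher but not past 0.05, and Rasa2 0.0098 (adjusted p 0.99).

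Scaling between libraries does not touch ratios within a library, so the make-up of each transcript pool was also described. In values as deposited, which are not scaled between libraries, the 5 GTPases together held 41.8 and 41.2 RPKM in Het and 38.9 and 38.6 RPKM in Nf1-KO. Hras made up 48.3% and 49.9% of that sum in Het and 41.8% and 43.0% in Nf1-KO. Rras made up 23.6% and 22.9% in Het and 32.6% and 32.7% in Nf1-KO. The pool thus held less Hras and more Rras in both Nf1-KO libraries, while the share of Nras overlapped between groups (13.7% to 14.5% and 13.3% to 14.3%). Mras made up 4.60% and 4.22% of the sum in Het and 2.39% and 2.59% in Nf1-KO, and the ratio of Rras to Mras was 5.14 and 5.42 in Het and 13.6 and 12.6 in Nf1-KO. Rras2 held 8.98% and 9.34% in Het and 8.93% and 8.46% in Nf1-KO, close to each other. These shares have no call: with 2 libraries against 2, an exact permutation test cannot go below p = 0.333. The sum covers these 5 genes and not the whole family.

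In values as deposited, the pool of these 4 Ras-GAPs differed more in make-up than in size. Its size, unlike its make-up, depends on the scaling between libraries. The 4 genes summed to 7.78 and 7.57 RPKM in Het and 7.51 and 7.42 RPKM in Nf1-KO. Rasa1 held 52.1% and 51.1% of this sum in Het and 42.3% and 44.2% in Nf1-KO, and Nf1 14.0% and 13.3% in Het and 11.9% and 11.5% in Nf1-KO. Rasa3 took 28.8% and 29.6% in Het and 38.9% in both libraries of Nf1-KO, so that Rasa3 approached the level of Rasa1. The Ras-GAP sum came to 18.6% and 18.4% of the GTPase sum in Het and 19.3% and 19.2% in Nf1-KO. Without Nf1 in the sum, that difference between group means was 1.07 percentage points in place of 0.789. The Ras-GAP sum covers these 4 genes and not all Ras-GAPs of the muscle. In Het, Dab2ip (mean 10.3 RPKM) and Rasa4 (9.06) each exceeded it.

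**Figure D3:**
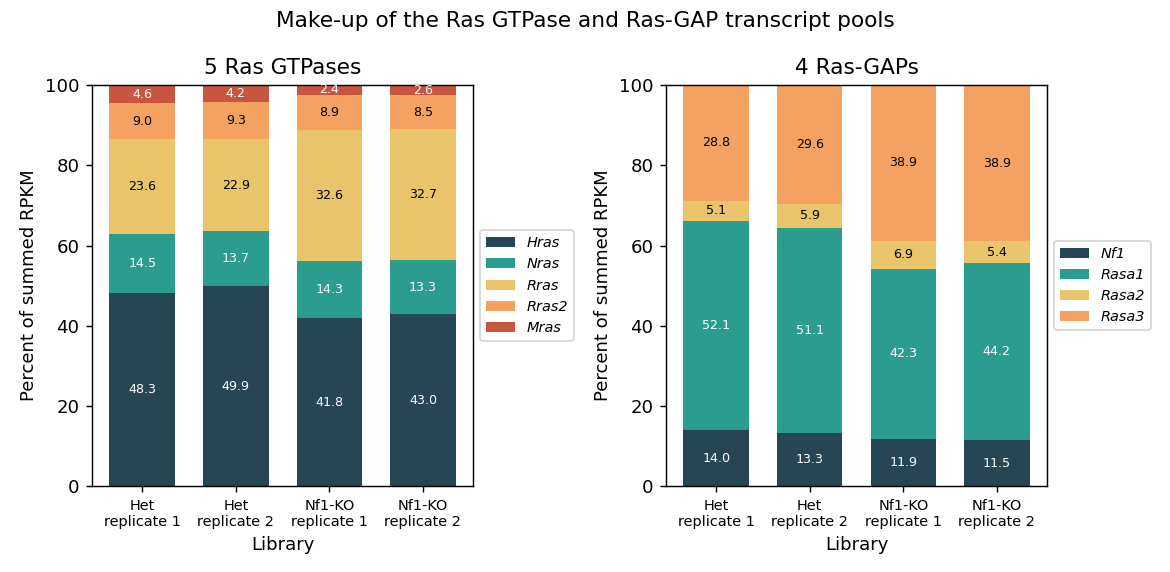
Share of each gene in the summed RPKM of the 5 Ras GTPases (left) and of the 4 Ras-GAPs (right), in percent, for each library. The Rras segment spans 22.9% to 23.6% in Het and 32.6% to 32.7% in Nf1-KO, and the Rasa3 segment 28.8% to 29.6% in Het and 38.9% in Nf1-KO.

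Muscle RNA comes from several cell types, and in bulk tissue fewer cells of a type and less RNA per cell cannot be told apart. All 9 myofibre markers were detected, with sums of 64346 and 64522 RPKM in Het and 50734 and 50550 RPKM in Nf1-KO, and 8 were called lower and only Myh1 higher. Their log2 fold changes ran from -1.72 for Pvalb to 0.52 for Myh1, so this sum need not follow the amount of myofibre. A part of fibre type in it was not tested. Marker sums of the other cell types given here were higher in both Nf1-KO libraries. For adipocytes this came through Cfd alone and for blood through Alas2 alone. Of all tested genes, 24.9% were called higher and 25.4% lower. Immune markers (6 of 7 detected, Adgre1 listed at 0) summed to 9.0 to 9.2 RPKM in Het and 28.3 to 28.4 in Nf1-KO, mostly Lyz2. The 5 Schwann cell markers reported here summed to 2.04 to 2.09 RPKM in Het and 4.30 to 4.36 in Nf1-KO. All 4 of them that could be tested were called higher, though Sox10 was not past 0.05 in the authors' deposited table (adjusted p 0.14). Fibroblast markers (5 of 5) summed to 84.4 to 86.7 in Het and 128 to 129 RPKM in Nf1-KO. Endothelial markers (6 of 6) summed to 81.4 to 82.3 RPKM in Het and 91.0 to 92.3 in Nf1-KO. Of these, 3 were called higher (Pecam1, Tek and Egfl7) and 1 lower (Kdr). In the authors' deposited table Pecam1 and Tek were not past 0.05 (adjusted p 0.20 and 0.13). Smooth muscle and pericyte markers (6 of 6) summed to 76.2 to 77.7 RPKM in Het and 100 to 101 in Nf1-KO. Of the 5 tested, only Rgs5 and Acta2 were called, both higher, and Rgs5 held most of the sum. Satellite cell markers (5 of 5) summed to 7.30 to 7.75 RPKM in Het and 8.95 to 9.29 in Nf1-KO. Most of this was Sdc4, which was not called (limma adjusted p 0.209), and of the 3 tested, 1 was called higher. Blood markers (3 of 4, Hbb-b1 listed at 0) summed to 1.37 to 1.47 RPKM in Het and 1.62 to 1.78 in Nf1-KO. Nearly all of this was Alas2, which was not called (limma adjusted p 0.134). Adipocyte markers (5 of 5) summed to 7.77 to 8.96 RPKM in Het and 19.1 to 19.6 in Nf1-KO, mostly Cfd; the other 4 summed to 1.90 to 2.16 RPKM in Het and 1.73 to 1.86 in Nf1-KO. Apart from adipocyte markers other than Cfd and blood markers other than Alas2, the sums outside the myofibre were higher along with Rras and Rasa3. Some of these sums rest mostly on a few abundant genes, so they need not follow the amount of a cell type. The myofibre sum was lower along with the 6 lower genes. The part of cell types in these results was not tested.

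Other genes of the pathway were grouped by role in 10 lists of 122 genes, of which 92 could be tested. In all, 22 were called higher and 24 lower, near the 24.9% and 25.4% of all tested genes, and none of these changed sign with unscaled values. With unscaled values the share of higher genes among those called was 58.5% in place of 47.8%, and without Het replicate 1 the higher calls numbered 12. Of the 92, 6 reached the filter in 1 group only, among them 5 called genes (Spred3 and Tiam1 in Het, and Rergl, Rrad and Plce1 in Nf1-KO), which had to differ to be tested; the other 86 held 19 higher and 22 lower calls. Plce1 is named here after its values were seen. Among other Ras-GAPs (3 of 6 tested), Rasa4 fell from 9.06 ± 0.191 to 7.88 ± 0.735 RPKM (SD, n = 2), Rasal2 rose from 0.965 ± 0.035 to 1.28 ± 0.014 RPKM, and Dab2ip, the most abundant, had a log2 fold change of -0.10 without a call. Of the 4 genes grouped with Nf1 (Spred1, Spred2, Spred3 and Lztr1), only Spred3 was called, lower, from 0.535 ± 0.0071 to 0.07 ± 0.014 RPKM. Spred3 reached the filter through Het alone. Lztr1, an adaptor that marks Ras proteins for degradation, had 0.07 without a call, and 0.15 (limma adjusted p 0.0257) with unscaled values. Dab2ip had -0.011 with unscaled values, and -0.12 (adjusted p 0.0475) in the authors' deposited table. Among 5 exchange factors tested, only Sos2 and Sos1 were called, with log2 fold changes of -0.32 and -0.25.

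Receptor adaptors and kinases of the cascade moved in both directions. Of 9 adaptors, Irs1, Ptpn11 and Grb2 fell by 0.70, 0.28 and 0.13 on the log2 scale and Irs2 rose by 0.40; Irs1 and Irs2 relay insulin and IGF signals. The call for Grb2 was lost with unscaled values (-0.039, limma adjusted p 0.337). Of 13 tested genes of the Raf-MEK-ERK module, 5 were called lower and 2 higher. Ksr1, a scaffold of the cascade, fell by 0.33, Map2k2 and Map2k1 (the MEK kinases) by 0.30 and 0.24, and the phosphatase subunit gene Ppp1cc by 0.24. The 2 higher calls, named after their values were seen, were the sister subunit genes Ppp1ca (0.19) and Ppp1cb (0.13), both more abundant than Ppp1cc. With unscaled values Map2k1 and Ppp1cc each had -0.15 and kept their calls. Pebp1, the most abundant, had -0.02 without a call, and 0.07 (limma adjusted p 0.0277) with unscaled values. Other Ras effectors (10 tested) had 3 calls lower and 2 higher, with Pik3cd down from 2.77 ± 0.113 to 1.29 ± 0.028 RPKM (SD, n = 2), Tiam1 and Pik3ca lower by log2 fold changes of -0.40 and -0.25, and Rgl1 at 0.27; Rgl2, the most abundant by mean, had 0.02 without a call (0.10 with unscaled values, also without a call). Tiam1 reached the filter through Het alone, and its mean went from 0.625 RPKM in Het to 0.26 in Nf1-KO.

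Genes that attach lipids to Ras or move it (10 tested) had 2 calls higher and 3 lower. Pde6d, a chaperone of lipid-bound Ras, Zdhhc9, a palmitoyltransferase of Ras, and Pggt1b fell by 0.29, 0.28 and 0.27 on the log2 scale, while Fntb, the beta subunit of farnesyltransferase, rose by 0.25; Fnta, the most abundant, had 0.06 without a call. With unscaled values Pggt1b lost its call (-0.20, limma adjusted p 0.0524) and Fnta gained one (0.15, limma adjusted p 0.0049). In the authors' deposited table neither of the 2 higher calls, Fntb and Lypla2, was past 0.05 (adjusted p 0.060 and 0.27). Of 21 other GTPases of the Ras subfamily that could be tested, 7 were called higher and 3 lower. In the authors' deposited table Rap1b, Rit1, Rrad and Nkiras2 of these 7 were not past 0.05 (adjusted p 0.058, 0.29, 0.053 and 0.28). Rasd1 rose from 0.54 ± 0.071 to 1.87 ± 0.035 RPKM (SD, n = 2). Rergl, Rasl11b and Rrad rose by 0.61, 0.40 and 0.37 in log2(RPKM + 1), a scale that understates the change at these low levels. Their mean RPKM went from 0.065 to 0.645, from 0.89 to 1.585 and from 0.305 to 0.72. Rheb, the most abundant, had -0.03 without a call (0.06 with unscaled values, also without a call). Rergl and Rrad reached the filter through Nf1-KO alone, and without genes of that kind 5 were higher and 3 lower of 18. Of 7 tested GAPs of Rap and related GTPases, Ralgapa1 and Ralgapb, which form a complex acting on Ral, fell by 0.51 and 0.34 and Sipa1l2 rose by 0.40, while Tsc2 had 0.05 without a call, and 0.13 (limma adjusted p 0.0157) with unscaled values.

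ERK-responsive transcripts were the list with the highest median log2 fold change, 0.18 over 10 tested genes. Of these, 6 were called higher and 1 lower, against 24.9% and 25.4% of all tested genes. In the authors' deposited table Dusp6 and Etv5 of the 6 were not past 0.05 (adjusted p 0.28 and 0.14). The direction of this list is not independent evidence, since earlier results were known when it was chosen. Egr1 rose from 1.64 ± 0.0071 to 4.94 ± 0.021 RPKM (SD, n = 2). Phlda1, Spry2 and Spry1 rose by 0.90, 0.36 and 0.20 in log2(RPKM + 1), with mean RPKM of Phlda1 going from 1.495 to 3.86. Ccnd1, cyclin D1, fell by 0.39. Exons of Rasa4, Rasal2, Dab2ip, Spred3, Irs1, Irs2, Ksr1, Ppp1ca, Ppp1cb, Fntb, Rrad, Ralgapa1, Tsc2, Ccnd1, Phlda1 and Spry1 overlap those of other annotated genes. The strandedness of the counting is not given in the sources used here, so the values of these genes may include reads of both.

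**Figure D4:**
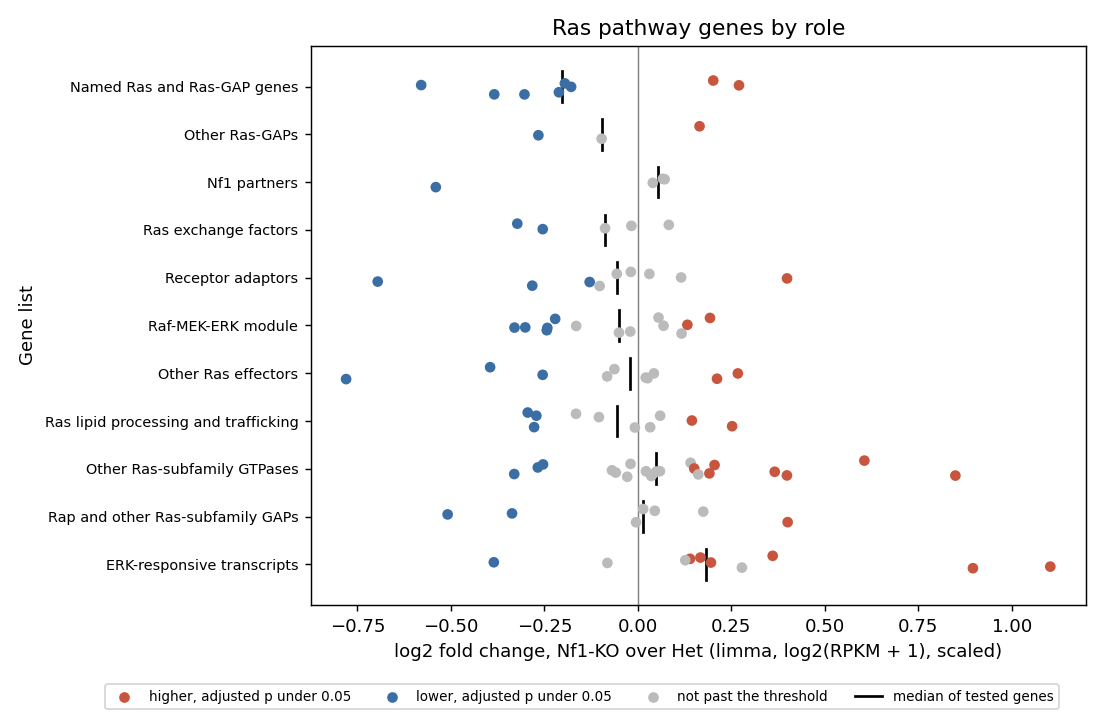
Log2 fold change of Nf1-KO over Het for each tested gene of the named Ras and Ras-GAP genes and of 10 lists by role; red and blue mark calls higher and lower, grey no call, and black bars the median of a list's tested genes. Medians lie between -0.20 for the named genes and 0.18 for ERK-responsive transcripts, and all but 2 lists hold calls in both directions.

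The genes whose pattern over the 4 libraries was closest to that of Nf1, by Euclidean distance between mean-centred log2(RPKM + 1) values, were Rph3al (distance 0.0072), Vti1a (0.011) and Slc39a13 (0.011). Among the other members tested, Nras was nearest (distance 0.057, rank 357 of 10689 genes), then Rras2 (0.076) and Rasa1 (0.133). With 4 libraries such a rank mostly reflects the size of the group difference.

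Promoter sequence was described for the members that differed most in each direction, Mras and Rras, as 250 bases before the start of the transcript (RefSeq, GRCm38.p6). Capitals mark the GC box, searched as GGGCGG on both strands, which 32.7% of 32851 such windows held. All 9 members had an entry in the table. The GC box was present before Hras, Nras, Rras2, Mras, Rasa1, Rasa2 and Rasa3, and was found neither before Nf1 nor in any of the 3 windows listed for Rras.
Mras, chr9:99436713-99436962, minus strand: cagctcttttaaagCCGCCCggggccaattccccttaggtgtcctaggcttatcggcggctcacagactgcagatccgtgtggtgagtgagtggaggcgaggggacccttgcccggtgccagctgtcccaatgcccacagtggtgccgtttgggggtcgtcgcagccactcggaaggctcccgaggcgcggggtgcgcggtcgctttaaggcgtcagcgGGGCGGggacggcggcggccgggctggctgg
Rras, chr7:45017692-45017941, plus strand, the first of its listed starts: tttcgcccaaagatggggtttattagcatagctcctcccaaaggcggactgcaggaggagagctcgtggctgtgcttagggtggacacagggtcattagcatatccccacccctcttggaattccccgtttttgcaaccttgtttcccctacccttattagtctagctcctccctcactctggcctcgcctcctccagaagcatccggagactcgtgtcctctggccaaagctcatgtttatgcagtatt
The Mras window held 24 CpG pairs and 2 GC boxes, and the Rras window 7 CpG pairs and no GC box, where the median window held 6 CpG pairs. In the Mras window 2 copies of the CCAAT box (CCAAT, either strand) and 1 of the E-box CAGCTG were also present, none of them in the Rras window shown. These matches describe letters only, and no binding was measured here.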

How the data were processed

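Total RNA of 4 tibialis anterior libraries was measured by RNA-seq, and groups were taken from the sample titles. Per the submitters' processing notes, reads were aligned with STAR 2.4.2a to mm9 and DESeq2 was used; the counting program and annotation are not given in the sources used here. The authors deposited 1 value per gene and library, whose unit was read from the values as RPKM. Libraries summed to 532315 to 547144, and the mean normalized count per RPKM rose with transcript length with a log-log slope of 0.954 over 8498 genes. Per the file headers, the deposited comparison table holds a signal (the mean normalized count), a log2 fold change with its standard error, a test score, and p-values with and without adjustment.

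Of 34682 rows, 33 named by a number were left out, and each gene name kept its row of highest mean (1781 rows are marked as copies; only Nras had one among the members, at 0 to 0.01 RPKM). Values were scaled by trimmed means of log ratios without weights (at each end, 30% of the ratios and 5% of the abundances were dropped; factors 0.969, 0.967, 1.03 and 1.03) and fitted with limma 3.58.1 in R 4.3.3 with a variance trend; the fit was tested on simulated data. Means and SD are of deposited RPKM. All genes of the 9 were named, and of each list the 4 largest called changes and the most abundant gene. Other pathway list genes given with a call or an adjusted p were named after their values were seen. The members and lists were chosen with earlier results of these data known. Gene annotation (GENCODE M21) and promoter sequences (RefSeq) are of GRCm38, not of mm9, and are joined by gene name only. The total read depth per library is unknown, so no counting intervals are given. Some items are not reported here. Alternatives covered the pseudocount, filter, scaling, variance trend, a replicate block, copies of rows and each library left out.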

Additional observations from a re-analysis of the deposited data

How the results depend on the processing

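Of 172 values under alternative settings, 146 kept both direction and call, or stayed within 1.5 times for counts; 18 kept their direction but lost the call, 8 moved, and none reversed. Nf1 lost its call with no filter (log2 fold change -0.19), with unscaled values (-0.13) and with each library left out (-0.21 to -0.15), and could not be tested at 1 RPKM in every library. Nras lost its call with no filter (-0.21) and unscaled values (-0.12), and Rras2 with unscaled values (-0.14). With 1 library left out, log2 fold changes ran from 0.20 to 0.21 for Rasa3, from -0.25 to -0.14 for Nras and from -0.24 to -0.17 for Rras2; a lone library in a group is then assumed to vary like the other group. The members called higher fell from 2 to 1 with any library left out, and those called lower from 6 to 3 with unscaled values and to between 3 and 5 with a library left out. Pathway list genes called higher ran from 12 to 16 with a library left out, with 12 without Het replicate 1. The difference of the Ras-GAP to Ras ratio was 1.07 percentage points without Nf1 in the sum, Nf1 itself being lower in Nf1-KO. The cause of the other lost calls was not tested. Replicate numbers gave no pairing of the libraries (correlation of deviations -0.018 across genes); in a fit with a replicate block Nf1 was not called (-0.18, limma adjusted p 0.056), 5 members were called lower and 2 higher, and no other member changed its call. Low read numbers limit Rasa2 and Mras most.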
